A study of Mus musculus with 10 samples.

Results

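The vacuolar proton pump and the acid-base transporters of intercalated cells were followed in the kidney cortex of mice with aristolochic acid nephropathy (AAN). The members were all genes whose mouse symbol starts with Atp6v or Atp6ap, which name the subunits and accessory proteins of the pump, and 17 named genes of acid-base transport: *Slc4a1*, *Slc4a4*, *Slc4a9*, *Slc26a4*, *Slc26a7*, *Foxi1*, *Car2*, *Car4*, *Car12*, *Car14*, *Rhbg*, *Rhcg*, *Atp4a*, *Atp12a*, *Slc9a3*, *Insrr* and *Aqp6*. They came to 41 of the 21792 genes listed, of which 24 carried a pump name. Another 4 symbols that match the pattern (*Atp6ap1l*, *Atp6v0c-ps1*, *Atp6v0c-ps2* and *Atp6v1fnb*) were not analysed here.

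The vacuolar H+-ATPase is a rotary pump with a cytosolic V1 domain that splits ATP and a membrane V0 domain that carries the protons. Every cell uses it to acidify lysosomes and endosomes. Intercalated cells of the collecting duct also place it in the plasma membrane, where it contains tissue-restricted isoforms of several subunits. Type A intercalated cells secrete acid through an apical pump and return bicarbonate through the exchanger encoded by *Slc4a1*, whereas type B cells secrete bicarbonate through pendrin, encoded by *Slc26a4*.

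Messenger RNA was measured by paired-end RNA sequencing in 10 wild-type male C57BL/6 mice that were 8 weeks old at treatment. The 6 AAN mice received 1 intraperitoneal injection of aristolochic acid, a plant nephrotoxin, at 5 mg/kg body weight, and the 4 sham mice received the PBS vehicle alone. Both groups were killed at day 28 and each library came from 1 mouse. The comparison asked which genes differed in the fibrotic cortex. The values are FPKM, fragment counts divided by transcript length and by sequencing depth, so that levels are per length and can be set beside each other between genes.

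The FPKM steps of low genes corresponded to 13.4 M to 17.5 M fragments per mouse, with 95.4% to 97.4% of the values used whole within 0.05 of a fragment. Of the summed FPKM, mitochondrial genes took 39.5% to 61.4% in sham and 21.4% to 55.0% in AAN libraries. Proximal tubule markers, which define cortex, were abundant: the sodium phosphate cotransporter gene *Slc34a1* ranged from 1231 to 2754 FPKM in sham mice. A pair of libraries stood apart in transcript length. For each gene the log2 level was taken as a deviation from the mean of the mouse's own group. The median deviation of genes under 1500 bases (n = 1747) minus that of genes over 5000 bases (n = 2362) was -0.71 in sham B607 and -0.58 in AAN B614. In the other 8 mice it was -0.02 to 0.31.

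Members followed this split in part, B607 more clearly than B614. Among the 17 members whose longest annotated transcript exceeded 3000 bases, B607 was the highest sham mouse for 12 and B614 the highest AAN mouse for 12, and among the 23 shorter members this held for 8 and 13. The median of these members in B614 was 1.08 log2 units above the median of the other AAN mice, and in B607 0.87 above the other sham mice. For the shorter members the corresponding medians were 0.47 and 0.08, and in B614 these members ranged from -0.71 to 1.92. Several members that moved with either mouse are therefore given with and without it, and the part of transcript length in them was not tested. In the summed marker levels below, B614 was also the AAN mouse nearest to sham for macrophages, osteoclasts and the proximal tubule. For endothelium it was the farthest. Values without B614 therefore leave out more than a library that differs in transcript length.

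**Figure D1:**
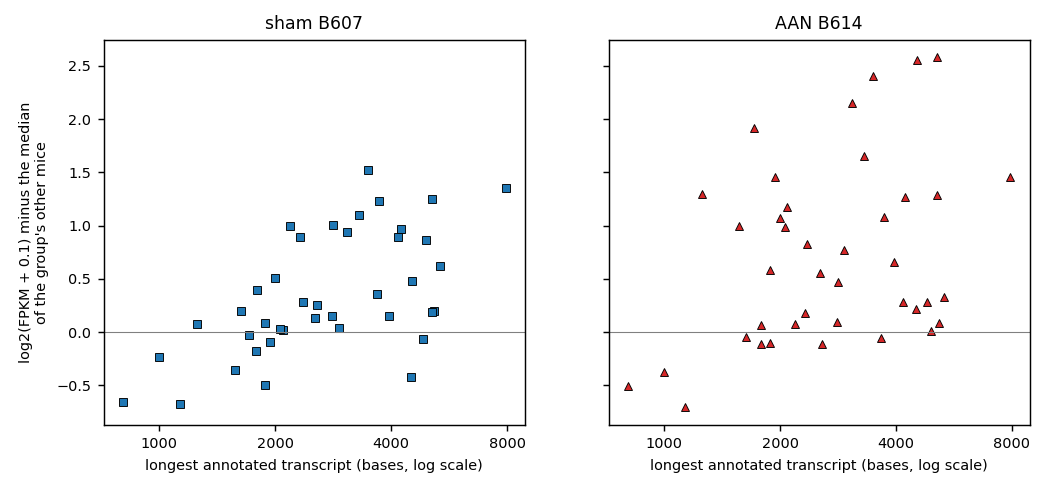
Each point is 1 of 40 member genes, with the length of its longest annotated transcript in bases (log axis) against its log2 level in sham B607 (left, squares) or AAN B614 (right, triangles) minus the median of the other mice of the same group. In both panels most members over 3000 bases lie above 0, with medians of 0.87 and 1.08. The shorter members lie on both sides of 0, with the shortest, *Atp6v1f*, *Atp6v0b* and *Atp6v1g1*, below it.

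On the deposited scale most pump and intercalated cell genes changed less than the typical gene or were lower. Across all 17129 genes that averaged 0.1 FPKM or more, the median log2 fold change (AAN against sham, on log2(FPKM + 0.1)) was 0.75, and 82.3% of the genes lay above 0. Across the 40 members that passed that limit the median was 0.04, and 38 lay below the median of all genes. Among the 3760 genes that averaged 10 FPKM or more the median was 0.40, and 26 of the 29 members at that level were below it.

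A call required an adjusted p of at most 0.05 (limma, Benjamini-Hochberg over all genes tested) and a difference of at least 2-fold. On the deposited scale 1 member was called higher in AAN, *Atp12a*, against 35.8% of all genes. Of the members, 3 were called lower, *Car4*, *Car14* and *Slc4a1*, against 3.43% of all genes. With no limit on the fold, 2 members were higher, against 55.4% of all genes, and 7 were lower, against 6.0%. These were *Atp12a* and *Slc26a7* on the higher side and *Car4*, *Car14*, *Slc4a1*, *Rhbg*, *Insrr*, *Rhcg* and *Atp6v1c2* on the lower side.

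The direction of a small change depended on how the libraries were scaled. Rescaling by the median of ratios, which moved the median of all genes to 0.06, left 0 members called higher, against 19.0% of all genes, and 15 called lower, against 10.5%. Of the 40, *Atp12a* and *Slc26a7* had positive rescaled values. The 15 were *Car4*, *Car14*, *Car12*, *Slc4a1*, *Slc26a4*, *Insrr*, *Rhbg*, *Rhcg*, *Atp6v1c2*, *Atp6v1g3*, *Atp6v0a4*, *Atp6v1a*, *Atp6v1e1*, *Slc4a4* and *Slc9a3*. Under quantile normalization 29 of the 40 members lay below the median of all genes, and the widely used pump subunits had a median of -0.127 against -0.135 for all genes, with 8 of 16 below it. A fold change on the deposited scale below is therefore a change in FPKM, and its distance from 0.75 is its change relative to the typical gene. In bulk cortex, fewer cells of a type and less RNA per cell cannot be told apart.

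**Figure D2:**
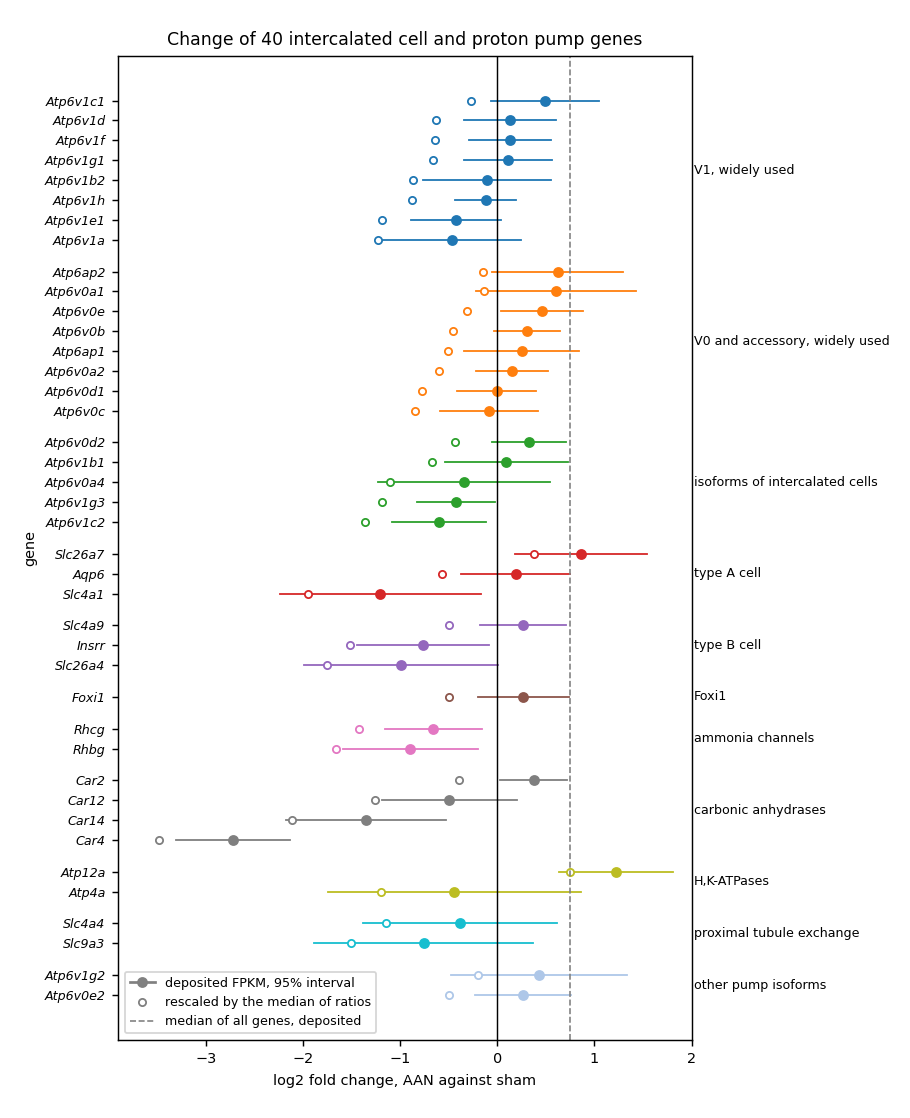
Filled points give the log2 fold change (AAN against sham) of each of 40 member genes on deposited FPKM with its 95% interval, open points the value after rescaling by the median of ratios, and colours the role. All members but *Atp12a* and *Slc26a7* lie left of the dashed line, the median of all genes at 0.75, and *Car4* lies farthest to the left at -2.72.

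None of the 16 widely used subunits of the pump (8 of the V1 domain, 8 of the V0 domain and its accessory proteins) passed the test on the deposited scale with all mice, at any fold. Their median log2 fold change was 0.13, between -0.47 and 0.62. Their sham levels ran from 2.92 ± 1.29 FPKM (SD, n = 4) for *Atp6v0a1*, one of the subunit a isoforms of the membrane domain, to 219 ± 49.2 for *Atp6v1f*, a small subunit of the central V1 stalk. After rescaling, all 16 were below 0, and 11 passed the adjusted p with no limit on the fold, against 21.0% of all genes lower by that rule. *Atp6v1a* and *Atp6v1e1* were called lower at 2-fold, and 2 of 16 is near the 10.5% of all genes called.

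*Atp6v1a* encodes the catalytic A subunit, which binds and splits ATP. It stood at 63.5 FPKM in sham B607, 30.0 in B634, 32.4 in B636 and 36.5 in H249, and in the AAN mice at a lowest of 18.8, a median of 26.7 and a highest of 62.2. B607 and B614 were the highest mice of their groups, and the other 5 AAN mice (18.8 to 28.4) all lay below every sham mouse. The log2 fold change was -0.47 (95% interval -1.18 to 0.24, adjusted p = 0.227, limma), -0.70 without B614 (adjusted p = 0.0224), -0.23 without B607 (adjusted p = 0.549) and -0.46 without both (adjusted p = 0.0388).

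*Atp6v1e1*, the peripheral stalk subunit that ties V1 to V0, was not called on the deposited scale. Its sham levels were 54.7 (B607), 37.4 (B634), 53.2 (B636) and 57.6 FPKM (H249), and its AAN levels had a lowest of 28.9, a median of 37.0 and a highest of 52.2, again in B614. The groups overlapped, with a log2 fold change of -0.43 (95% interval -0.89 to 0.03, adjusted p = 0.0971, limma), -0.53 without B614 (adjusted p = 0.0321) and -0.38 without B607 (adjusted p = 0.175). *Atp6v1h*, a regulatory subunit of V1, was at 8.47 ± 0.551 FPKM in sham (SD, n = 4) and 7.84 ± 1.05 in AAN (SD, n = 6), a log2 fold change of -0.12 (95% interval -0.43 to 0.20, adjusted p = 0.486, limma) and of -0.87 after rescaling (adjusted p = 0.000164).

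At the other end of the widely used subunits stood *Atp6ap2*, *Atp6v0a1* and *Atp6v1c1*. *Atp6ap2*, the accessory protein also known as the prorenin receptor, was at 37.8, 18.1, 20.3 and 33.3 FPKM in sham B607, B634, B636 and H249, and at 21.4 (lowest), 49.3 (median) and 55.1 (highest) in AAN. Although 4 AAN mice were above all sham mice, B630 and B639 fell within the sham range, and the log2 fold change of 0.62 had a 95% interval of -0.06 to 1.3 (adjusted p = 0.10, limma). *Atp6v1c1*, the subunit that regulates assembly of V1 on V0, had a log2 fold change of 0.49 (-0.07 to 1.04, adjusted p = 0.112, limma). That value was 0.46 without B614 (adjusted p = 0.156, limma). It passed the adjusted p without B607 (0.71, adjusted p = 0.0213) and without both mice (0.68, adjusted p = 0.0289), under 2-fold each time. *Atp6v0a1* had 0.61 (-0.22 to 1.43, adjusted p = 0.179, limma) with its highest level, 9.21 FPKM, in AAN B630 against 2.28 to 4.81 in the other AAN mice. All 3 turned negative after rescaling, by -0.14, -0.27 and -0.13, so no direction is given for them.

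Sequence upstream of the pump genes was examined for the motif TCACGTG, the core letters of the element bound by the lysosomal regulator TFEB and its relatives. RefSeq windows (GRCm38.p6) of 250 bases before to 50 after the start of transcription were found for 28 of the 41 members. On either strand TCACGTG was present in 6 of the 28 windows (21.4%) and in 4.29% of the 27025 genes with a window. The shorter CACGTG, which every TCACGTG contains, was present in the same 6 and in 8.09% of all genes. The 6 were *Atp6v1a*, *Atp6v0b*, *Atp6v0d1*, *Atp6v0e*, *Aqp6* and *Slc9a3*, so that 4 of them are widely used pump subunits, of which 11 had a window. None of the 4 windows of isoforms enriched in intercalated cells held it.

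For intercalated cells the forkhead letters TGTTTAC were searched, since *Foxi1* encodes the forkhead factor of these cells. They were found on either strand in 1 member window, that of *Atp6v1b1*, and in 4.05% of all genes. The looser TAAACA, which overlaps TGTTTAC read on the other strand, was found in *Atp6v1b1* and *Car12* and in 15.1% of all genes. Stretches from the windows of *Atp6v1a* (chr16:44139359-44139416, minus strand), *Atp6v0b* (chr4:117887330-117887391, minus strand, with 2 copies), *Aqp6* (chr15:99601146-99601199, plus strand) and *Atp6v1b1* (chr6:83742894-83742950, plus strand) are shown because they hold the motifs of a widely used catalytic subunit, the densest case, an intercalated cell channel and the intercalated cell isoform of subunit B. They are printed 5′ to 3′ on the strand of the gene, end at or before the base ahead of the start site, and carry the motif on either strand in capitals.
Atp6v1a: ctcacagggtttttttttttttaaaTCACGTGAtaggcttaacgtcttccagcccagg
Atp6v0b: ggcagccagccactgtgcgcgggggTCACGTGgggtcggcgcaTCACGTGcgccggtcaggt
Aqp6: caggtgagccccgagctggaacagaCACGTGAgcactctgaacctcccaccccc
Atp6v1b1: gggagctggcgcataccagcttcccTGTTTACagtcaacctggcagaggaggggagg
A match of letters is a description of these windows and shows no binding. The genes that share TCACGTG did not move alike on the deposited scale: *Atp6v0e* and *Atp6v0b* had log2 fold changes of 0.46 and 0.31, *Atp6v0d1* -0.01, *Atp6v1a* -0.47 and *Slc9a3* -0.76, none past the test.

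The isoforms enriched in intercalated cells had a median log2 fold change of -0.34 over 5 genes, between -0.60 and 0.33. In this group 1 passed the adjusted p, *Atp6v1c2*, and none reached 2-fold on the deposited scale. After rescaling all 5 were below 0 and *Atp6v1c2*, *Atp6v1g3* and *Atp6v0a4* were called lower. On the deposited scale the intervals of *Atp6v1b1*, *Atp6v0d2* and *Atp6v0a4* spanned 0.

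*Atp6v1c2* encodes the C subunit isoform of kidney and lung. It was at 10.3 FPKM in sham B607, 13.2 in B634, 13.8 in B636 and 11.5 in H249, against a lowest of 6.33, a median of 6.77 and a highest of 13.4 in AAN. All AAN mice but B614 lay below every sham mouse. It fell by 0.60 on the log2 scale (SE 0.22, adjusted p = 0.0342, limma), and by 0.75 without B614 (adjusted p = 0.00228). Leaving out each mouse in turn took the adjusted p past 0.05 in 7 of 10 cases (sham B634, B636 or H249, AAN A483, B639, B642 or B666), with a highest of 0.0921.

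*Atp6v1g3*, the G subunit isoform of the kidney (chr1:138273738-138289462, plus strand, GRCm38), was at 27.7, 39.1, 46.0 and 32.3 FPKM in sham B607, B634, B636 and H249. In AAN its lowest value was 23.5, its median 25.1 and its highest 36.4. The 5 AAN mice other than B614 (23.5 to 27.5) were below all sham mice, although by little for B607, the lowest sham mouse. The log2 fold change was -0.42 (95% interval -0.82 to -0.02, adjusted p = 0.0652, limma), and it passed the adjusted p without B614 (-0.51, adjusted p = 0.0164) and without B607 (-0.54, adjusted p = 0.0261).

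*Atp6v0a4*, the a4 subunit whose loss causes distal renal tubular acidosis in humans, varied with the pair of libraries named above. Sham B607 had 45.5 FPKM and the other sham mice 15.1 to 25.7, while AAN B614 had 53.0 and the remaining 5 lay at 12.0 to 21.9. Its log2 fold change was -0.34 (95% interval -1.23 to 0.54, adjusted p = 0.476, limma) that was -0.63 without B614 (adjusted p = 0.0846), -0.05 without B607 (adjusted p = 0.919) and -0.34 without both (adjusted p = 0.223).

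*Atp6v1b1*, the B1 subunit of the apical pump, and *Atp6v0d2*, the d2 subunit that osteoclasts and macrophages also use, had overlapping groups. *Atp6v1b1* was at 21.2, 10.7, 14.9 and 16.8 FPKM in sham B607, B634, B636 and H249 and at 11.2 (lowest), 15.9 (median) and 32.8 (highest) in AAN, with a log2 fold change of 0.09 (95% interval -0.54 to 0.73, adjusted p = 0.795, limma) that was -0.11 without B614 and -0.085 without B634. *Atp6v0d2* was at 14.8 ± 1.21 FPKM in sham (SD, n = 4) and 18.8 ± 4.24 in AAN (SD, n = 6), with 0.33 (-0.06 to 0.71, adjusted p = 0.125, limma). Both turned negative after rescaling (-0.67 and -0.43). Macrophage markers moved strongly in the same mice: all 12 on the list were called higher, led by *Cd68*, *Msr1*, *Lyz2* and *C1qb*, against 35.8% of all genes. Their summed level was 47.9 to 82.6 FPKM in sham and 1810 to 5788 in AAN, and their part in the level of *Atp6v0d2* was not tested.

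To compare the restricted with the widely used isoform independently of the scaling of a library, the log2 ratio of each pair was taken within each mouse and compared by an exact two-sided permutation test, in which the smallest possible p is 0.00476. Together with *Slc4a1* to *Slc26a4* and *Atp6v1b1* to *Aqp2* there were 7 ratios, and none passed after adjustment over the 7. With 1 mouse left out a single ratio could not pass this adjustment. The ratio of *Atp6v1c2* to *Atp6v1c1* was -1.35 ± 0.665 in sham (SD, n = 4) and -2.43 ± 0.649 in AAN (SD, n = 6), a difference of -1.09 (SE 0.43, exact p = 0.0381, adjusted 0.260). In 4 of 6 AAN mice it was below every sham mouse, and *Atp6v1c2* made up 28.9% ± 8.82 of the pair in sham and 16.2% ± 6.42 in AAN. A ratio does not remove transcript length, and the longest transcripts of this pair have 1569 and 4927 bases. B607 had the lowest sham ratio, -2.25. The difference was -1.39 without B607 and -0.94 with length bins centred (exact p = 0.0619, adjusted 0.217).

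The ratio of *Atp6v1g3* to *Atp6v1g1* separated the groups apart from 1 mouse. It was -2.19 in sham B607, -2.37 in B634, -2.23 in B636 and -2.56 in H249, and -3.23 to -2.84 in 5 AAN mice but -1.85 in B614, above all sham mice. The difference was -0.53 with all mice (SE 0.23, exact p = 0.0810, adjusted 0.260) and -0.73 without B614 (exact p = 0.00794, the smallest that 4 against 5 mice can give, adjusted 0.0556). As a share, *Atp6v1g3* made up 14.5% to 18.0% of the pair in sham mice and 9.61% to 12.2% in the 5 AAN mice.

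The other isoform pairs did not pass the test either. *Atp6v0a4* to *Atp6v0a1* differed by -0.95 (SE 0.58, exact p = 0.162, adjusted 0.260), and by -0.59 without AAN B630. The a4 isoform made up 80.2% to 93.6% of the pair in sham, 56.5% in AAN B630 and 80.1% to 91.7% in the other AAN mice. *Atp6v1b1* to *Atp6v1b2* differed by 0.19 (SE 0.22, exact p = 0.467, adjusted 0.467) and *Atp6v0d2* to *Atp6v0d1* by 0.33 (SE 0.19, exact p = 0.186, adjusted 0.260). For *Atp6v0d2* to *Atp6v0d1*, 4 AAN mice were above every sham mouse and 1 was below. Whether the pairs differ from each other was not tested.

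**Figure D3:**
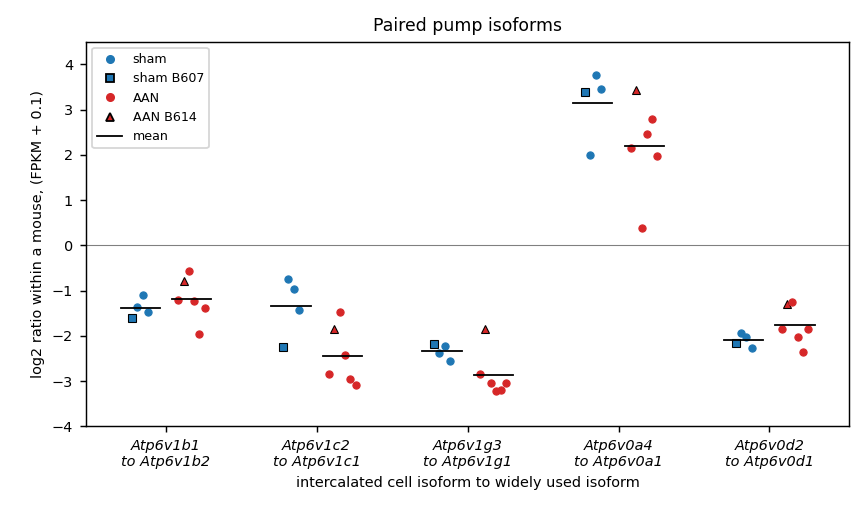
Points are mice, and the vertical axis is the log2 ratio of (FPKM + 0.1) of the intercalated cell isoform to that of the widely used isoform within the mouse, with the group mean as a line. For *Atp6v1g3* to *Atp6v1g1*, 5 AAN mice lie at -3.23 to -2.84, below the sham mice at -2.56 to -2.19, and B614 lies above them at -1.85.

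Among the remaining pump names, *Atp6v0e2*, a V0 subunit isoform, was at 14.4 ± 4.17 FPKM in sham (SD, n = 4) and 17.1 ± 3.61 in AAN (SD, n = 6), a log2 fold change of 0.26 (95% interval -0.23 to 0.75, adjusted p = 0.331, limma). *Atp6v1g2*, the neuronal G isoform, stayed under 1.8 FPKM in every mouse, with 0.43 (-0.48 to 1.34, adjusted p = 0.384, limma). *Atp6v1e2*, the testis isoform of subunit E, was the member that did not reach the mean of 0.1 FPKM: it was listed at 0 in 8 mice and at 0.0604 in sham H249 and AAN A483. Rescaling turned *Atp6v0e2* and *Atp6v1g2* negative.

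Of the type A intercalated cell genes, *Slc4a1*, the basolateral chloride-bicarbonate exchanger AE1 (chr11:102348824-102366203, minus strand, GRCm38), was called lower. It was at 12.9 FPKM in sham B607, 5.56 in B634, 9.20 in B636 and 9.47 in H249, and at 2.38 (lowest), 2.94 (median) and 15.5 (highest) in AAN. In 5 AAN mice it lay at 2.38 to 3.87, below every sham mouse, while B614 had the highest level of all 10. It fell by 1.20 on the log2 scale (SE 0.47, adjusted p = 0.0435, limma), by 1.60 without B614 (adjusted p = 0.000217) and by 1.43 without both B607 and B614 (adjusted p = 0.000502). The call with all mice depended on single mice, since leaving out any of sham B607, B636 or H249 or of AAN A483, B630, B639, B642 or B666 ended it, with adjusted p up to 0.108, and the adjusted p was 0.144 among the mice whose tags start with B. The call was kept without B634. With all mice kept, a pseudocount of 1 or no filter on low values also ended the call.

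Red cells also use *Slc4a1*. Of 6 erythroid markers tested 1, *Epb42*, was called higher, against 35.8% of all genes, and none lower, against 3.43%. The summed level of the list was 3.45 to 28.1 FPKM in sham and 9.13 to 33.1 in AAN. The erythroid markers *Hemgn* and *Ermap* were listed at 0 in all sham mice. The part of red cells in the level of *Slc4a1* was not tested.

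*Aqp6*, a water channel of intracellular vesicles in type A cells, had overlapping groups. It was at 23.3, 12.3, 22.8 and 23.9 FPKM in sham B607, B634, B636 and H249 and at 18.1 (lowest), 20.9 (median) and 39.4 (highest, B614) in AAN, a log2 fold change of 0.19 (95% interval -0.37 to 0.75, adjusted p = 0.530, limma). That value was 0.03 without B614 (adjusted p = 0.898, limma). *Slc26a7*, a chloride-bicarbonate exchanger of type A cells of the outer medulla, was near the limit of detection in this cortex. Its levels were 0.102 to 0.158 FPKM in sham and 0.110 to 0.503 in AAN, and its log2 fold change of 0.86 (SE 0.31, adjusted p = 0.0301, limma) did not reach 2-fold and no longer passed without sham B634 or B636 or AAN A483, B630 or B639 (adjusted p up to 0.0731). It was called without AAN B666 (1.05, adjusted p = 0.00534) and was -0.40 under quantile normalization.

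Of the type B genes, *Slc26a4*, which encodes pendrin, and *Insrr*, the alkali-sensing receptor of the insulin receptor family, were at lower values and *Slc4a9* was not. *Slc26a4* (chr12:31519827-31559969, minus strand, GRCm38) was at 38.3 FPKM in sham B607, 19.5 in B634, 19.97 in B636 and 21.3 in H249, and at 6.41 (lowest), 10.3 (median) and 45.2 (highest) in AAN. In 5 AAN mice it lay at 6.41 to 11.2, below every sham mouse, and B614 again exceeded them all. The log2 fold change was -0.99 with all mice (95% interval -1.99 to 0.00, adjusted p = 0.0768, limma), -1.38 without B614 (adjusted p = 0.000509), -0.76 without B607 (adjusted p = 0.194) and -1.15 without both (adjusted p = 0.000545). Without both mice it was 1 of 5 members called lower, against 3.67% of all genes, and 1 member was called higher, against 39.8%.

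*Insrr* had 7.90, 7.16, 6.93 and 5.05 FPKM in sham B607, B634, B636 and H249, against 2.29 (lowest), 3.31 (median) and 8.06 (highest, B614) in AAN. Of the other AAN mice, B630 at 5.56 lay within the sham range and 4 lay below it. It fell by 0.77 on the log2 scale (SE 0.31, adjusted p = 0.0494, limma), a difference under 2-fold that no longer passed in 7 of 10 cases with 1 mouse left out (sham B607, B634 or B636, AAN A483, B639, B642 or B666, adjusted p up to 0.107). Without B614 *Insrr* fell by 0.97 (adjusted p = 0.00473, limma). *Slc4a9*, the basolateral exchanger AE4 of type B cells, was at 28.6, 38.3, 41.3 and 31.2 FPKM in the same sham mice and at 26.9 (lowest), 43.0 (median) and 54.8 (highest) in AAN. Its log2 fold change was 0.27 (95% interval -0.18 to 0.71, adjusted p = 0.274, limma), and -0.50 after rescaling.

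The ratio of *Slc4a1* to *Slc26a4*, taken as the balance between the main bicarbonate exchangers of type A and type B cells, was -1.41 ± 0.325 in sham (SD, n = 4) and -1.62 ± 0.363 in AAN (SD, n = 6). The difference of -0.21 (SE 0.22, exact permutation p = 0.376, adjusted 0.439) was smaller than the spread within either group.

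*Foxi1* encodes the forkhead factor without which intercalated cells do not form. It was at 22.0 FPKM in sham B607, 17.8 in B634, 20.1 in B636 and 18.1 in H249, and at 17.0 (lowest), 21.7 (median) and 36.5 (highest, B614) in AAN. The groups overlapped, and the log2 fold change was 0.27 (95% interval -0.20 to 0.74, adjusted p = 0.290, limma). That interval lies within a 2-fold difference in FPKM, and the rescaled value was -0.49 (adjusted p = 0.0605). Without B614 the log2 fold change on the deposited scale was 0.14 (adjusted p = 0.491, limma). Of 8 tested intercalated cell markers outside the members, *P2ry14*, *Dmrt2* and *Kit* were called higher and none lower, a share near the 35.8% of all genes, and the summed level of the list was 140 to 184 FPKM in sham and 148 to 215 in AAN, most of it from *Tmem213*.

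The neighbouring principal cells, which reabsorb sodium and water, were followed by 8 markers. Of these 1, *Aqp4*, was called higher, against 35.8% of all genes, and none lower, against 3.43%. The summed level was 234 to 351 FPKM in sham and 165 to 428 in AAN. *Aqp2*, the vasopressin-regulated water channel, was at 75.7 to 113 FPKM in sham and 31.7 to 90.4 in AAN. The ratio of *Atp6v1b1* to *Aqp2* differed by 0.51 between the groups (SE 0.31, exact permutation p = 0.148, adjusted 0.260).

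The ammonia channels were lower in AAN. *Rhbg*, the basolateral channel of collecting duct cells, was at 38.2, 27.9, 44.7 and 40.6 FPKM in sham B607, B634, B636 and H249 and at 12.8 (lowest), 17.9 (median) and 49.0 (highest) in AAN. *Rhcg*, found at both cell faces, was at 56.8, 52.0, 60.4 and 56.2 FPKM and at 28.2 (lowest), 32.4 (median) and 64.1 (highest). For both genes 5 AAN mice lay below every sham mouse and B614 above every sham mouse.

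*Rhbg* fell by 0.89 on the log2 scale (SE 0.32, adjusted p = 0.0281, limma) and *Rhcg* by 0.66 (SE 0.23, adjusted p = 0.0256, limma), each under 2-fold. Without B614 they fell by 1.15 (adjusted p = 0.000221) and 0.82 (adjusted p = 0.000526), so that *Rhbg* was then called, as it was without B634 (-1.03, adjusted p = 0.0277). With all other mice kept, *Rhbg* no longer passed the adjusted p without sham B607, B636 or H249 or AAN A483, B639 or B642 (up to 0.0766), and *Rhcg* without sham B636 or H249 or AAN B639, B642 or B666 (up to 0.0646).

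**Figure D4:**
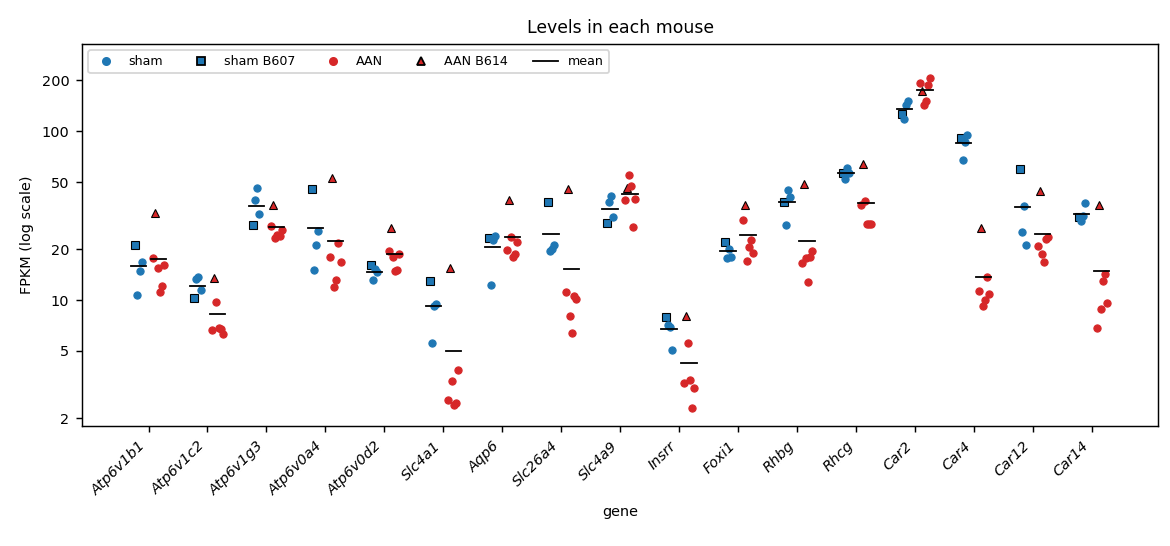
Each point is the FPKM (log axis) of 1 gene in 1 mouse, with sham mice left of AAN mice, B607 as a square, B614 as a triangle and the group mean as a line. For *Slc4a1*, *Slc26a4*, *Rhbg*, *Rhcg* and *Car14*, 5 AAN mice lie below all sham mice, and B614 lies above or among them, whereas for *Car4* B614, at 26.7, is also below all sham mice.

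Carbonic anhydrases, which interconvert carbon dioxide and bicarbonate, held the largest changes. *Car4*, a membrane-anchored enzyme of the proximal tubule and other segments (chr11:84957786-84966044, plus strand, GRCm38), was at 90.7 FPKM in sham B607, 67.5 in B634, 85.8 in B636 and 94.7 in H249, against 9.28 (lowest), 11.1 (median) and 26.7 (highest) in AAN. It is the member whose groups did not overlap on the lower side, against 3.25% of all genes tested. It fell by 2.72 on the log2 scale (SE 0.27, adjusted p = 5.48e-06, limma), was in the lowest 0.379% of all genes tested and kept its call under all 20 alternatives, with adjusted p from 1.25e-07 to 0.000178.

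*Car14*, the membrane enzyme of the proximal tubule brush border, was at 30.9, 29.5, 31.4 and 37.8 FPKM in sham B607, B634, B636 and H249 and at 6.82 (lowest), 11.4 (median) and 36.7 (highest, B614) in AAN. All AAN mice but B614 were below every sham mouse. It fell by 1.35 on the log2 scale (SE 0.38, adjusted p = 0.00855, limma), and by 1.66 without B614, and it kept its call under all 20 alternatives, with adjusted p from 6.45e-05 to 0.0469.

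*Car12*, a membrane enzyme of the basolateral face, and *Car2*, the cytosolic enzyme that is abundant in intercalated cells, did not pass the test. *Car12* was at 35.4 ± 17.1 FPKM in sham (SD, n = 4) and 24.5 ± 9.93 in AAN (SD, n = 6), a log2 fold change of -0.49 (95% interval -1.19 to 0.20, adjusted p = 0.195, limma) that was -0.68 without B614 (adjusted p = 0.0478) and -0.21 without B607 (adjusted p = 0.551). *Car2* was at 127, 118, 144 and 151 FPKM in sham B607, B634, B636 and H249 and at 143 (lowest), 179.9 (median) and 205 (highest) in AAN. With 5 AAN mice above every sham mouse its log2 fold change was 0.37 (95% interval 0.03 to 0.72, adjusted p = 0.0572, limma). It was -0.39 after rescaling (adjusted p = 0.0332, limma) but 0.37 under quantile normalization (adjusted p = 0.0297, limma), so no direction is given for it.

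The proximal exchangers, which reclaim filtered bicarbonate, were not called on the deposited scale. *Slc9a3*, the apical sodium-proton exchanger NHE3, was at 16.4 FPKM in sham B607 and 4.46 to 7.09 in the other sham mice, and at 18.8 in AAN B614 against 2.79 to 4.58 in the 5 others. Its log2 fold change was -0.76 (95% interval -1.88 to 0.37, adjusted p = 0.217, limma), -1.17 without B614 (adjusted p = 0.00894), -0.40 without B607 (adjusted p = 0.518) and -0.81 without both mice (adjusted p = 0.00829). *Slc4a4*, the basolateral sodium-bicarbonate cotransporter NBCe1, was at 72.1 in B607 and 22.8 to 35.9 in the other sham mice, and at 76.3 in B614 against 12.1 to 31.9 in the 5 others, with -0.38 (-1.38 to 0.62, adjusted p = 0.481, limma). That value was -0.68 without B614 (adjusted p = 0.132) and -0.05 without B607 (adjusted p = 0.933).

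Proximal tubule markers were lower in AAN along with *Car4* and *Car14*. Of the 8 on that list 6 were called lower, led by *Slc27a2*, *Slc22a6*, *Slc22a8* and *Slc34a1*, and none higher, against 3.43% and 35.8% of all genes. The summed level was 2470 to 4368 FPKM in sham, 2197 in AAN B614 and 695 to 1056 in the remaining 5. The part of proximal tubule content in the levels of these members was not tested.

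The H,K-ATPases, which exchange potassium for protons, were at low or moderate levels. *Atp12a*, the colonic form that is also made in the collecting duct, was at 0.13, 0.0479, 0.108 and 0.154 FPKM in sham B607, B634, B636 and H249 and at 0.245 (lowest), 0.393 (median) and 0.548 (highest) in AAN. All AAN mice were above all sham mice, as for 40.3% of all genes tested. It rose by 1.23 on the log2 scale (SE 0.27, adjusted p = 0.00199, limma), at levels where the constant of 0.1 FPKM enters the fold, and under quantile normalization the value was -0.071. *Atp4a*, the gastric form, was at 15.4 FPKM in B607 and 3.37 to 8.58 in the other sham mice, and at 21.9 in B614 against 1.81 to 6.36 in the 5 others, with a log2 fold change of -0.44 (95% interval -1.74 to 0.86, adjusted p = 0.531, limma) that was -0.86 without B614 (adjusted p = 0.117) and -0.07 without B607 (adjusted p = 0.932).

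Genes that assemble or regulate the pump were followed as a list of 13. Of these *Tcirg1* and *Oxr1* were called higher, against 35.8% of all genes, and none lower, against 3.43%. The median log2 fold change of the 13 was 0.21, against 0.75 for all genes. *Tcirg1* encodes the a3 isoform of subunit a, which is used by osteoclasts and macrophages and whose symbol lies outside the members. It was at 3.0 to 4.47 FPKM in sham and 9.79 to 28.1 in AAN and rose by 2.55 on the log2 scale (SE 0.27, adjusted p = 9.51e-06, limma).

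Of 18 lysosomal genes, 8 were called higher, against 35.8% of all genes, and none lower, against 3.43%. The median log2 fold change of the 18 was 0.83 against 0.75 for all genes. *Npc1*, a cholesterol exporter, rose by 1.41 on the log2 scale (adjusted p = 3.58e-05, limma), *Hexa*, a hexosaminidase subunit, by 1.95 (adjusted p = 4.85e-05, limma) and *Tfe3*, a factor of the TFEB family, by 1.35 (adjusted p = 9.03e-05, limma). *Tfeb* itself had 0.59 (adjusted p = 0.0110, limma), which did not reach 2-fold. *Neu1* had -0.51 (adjusted p = 0.0151, limma), also under 2-fold. Of 9 markers of osteoclasts and multinucleated giant cells 7 were called higher, led by *Dcstamp*, *Ctsk*, *Nfatc1* and *Itgb3*, and none lower. These compare with 35.8% and 3.43% of all genes. The summed level of the 9 was 46.5 to 55.9 FPKM in sham, nearly all from *Acp5*. In AAN it was 66.5 in B614 and 92.1 to 137 in the other mice. Of 7 endothelial markers none was called in either direction, against 35.8% of all genes called higher and 3.43% lower. Their summed level was 32.3 to 53.4 FPKM in sham and 51.6 to 71.7 in AAN.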

How the data were processed

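The authors mapped cleaned paired-end reads of kidney cortex RNA to GRCm38.p4 (mm10 per the labels) with HISAT2 and deposited, for each of the 10 mice, the FPKM of known gene models from StringTie; they called differences with edgeR, and their annotation release is not given in the sources used here. The deposited files hold no counts, so limma 3.58.1 (R 4.3.3, trend and robust variance) was fitted to log2(FPKM + 0.1) of the 17129 genes that averaged 0.1 FPKM or more, AAN (n = 6) against sham (n = 4), with the authors' limits (adjusted p at most 0.05, at least 2-fold). Intervals are 95% limma intervals. Symbols and gene positions came from GENCODE mouse release 21 (GRCm38), and 21650 of 21792 gene identifiers had a symbol. Ratios within a mouse were compared by an exact two-sided permutation test on the difference of means, adjusted over 7 ratios (Python 3.11.15, scipy 1.17.1, numpy 2.4.6). Both procedures were tested on simulated data.

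Depth was recovered from the FPKM steps of low single-transcript genes, and the precision it gives covers counting error only. Members, roles, marker lists and tests were chosen with earlier results of these data known. Every member outside the widely used subunits is named, and of those the 3 highest and 3 lowest log2 fold changes; other lists give counts and the members called, up to 4 by adjusted p. *Aqp2*, *Tfeb*, *Neu1*, *Acp5*, *Tmem213*, *Hmx2*, *Oxgr1* and the markers listed at 0 were named outside that rule after their values were seen. One marker of the erythroid list is not reported here. Separate mice are the replicates. No batch is given, so none could be separated from the groups.

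Alternatives were a pseudocount of 1 or 0.01, no filter, a filter at an average of 1 FPKM, division by each mouse's median of ratios (the median over genes above 0 in every mouse of each level divided by its geometric mean), quantile normalization, limma without trend or robust variance, each mouse left out, and B-tagged mice only. Chosen after seeing the data were the centring of 10 transcript length bins and leaving out B607 and B614 together.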

Additional observations from a re-analysis of the deposited data

Results flagged for a closer look

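In 102 groups of values (members, ratios and library measures, in each of sham and AAN), 24 had a highest or lowest mouse that stood apart by Dixon's criterion, where chance flags about 1 in 20. AAN B614 accounts for 18 of them. No explanation was tested.

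Among genes of intercalated cells, B614 stood above the other 5 AAN mice for *Slc4a1* (15.5 FPKM against 2.38 to 3.87), *Slc26a4* (45.2 against 6.41 to 11.2), *Aqp6* (39.4 against 18.1 to 23.5), *Atp6v0a4* (53.0 against 12.0 to 21.9), *Atp6v1b1* (32.8 against 11.2 to 17.7) and *Atp6v1g3* (36.4 against 23.5 to 27.5). The same held for the ammonia channels *Rhbg* (49.0 against 12.8 to 19.6) and *Rhcg* (64.1 against 28.2 to 38.8). The log2 ratio of *Atp6v1g3* to *Atp6v1g1* was -1.85 in B614 and -3.23 to -2.84 in the others.

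B614 was also high for *Car4* (26.7 FPKM against 9.28 to 13.6), *Car14* (36.7 against 6.82 to 14.3), *Car12* (44.1 against 16.7 to 23.6), *Slc9a3* (18.8 against 2.79 to 4.58), *Slc4a4* (76.3 against 12.1 to 31.9), *Atp4a* (21.9 against 1.81 to 6.36) and the catalytic subunit *Atp6v1a* (62.2 against 18.8 to 28.4). It was low for *Atp6v1g1* (131 against 194 to 228). Its index of short against long transcripts was -0.58, against -0.02 to 0.23 in the other AAN mice.

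The remaining flags fell on 6 other mice. *Atp6v0a1* was 9.21 FPKM in AAN B630 (2.28 to 4.81 in the others), *Slc26a4* was 38.3 in sham B607 (19.5 to 21.3), and *Aqp6* was 12.3 in sham B634 (22.8 to 23.9). *Atp6v1e2* was 0.0604 in sham H249 and in AAN A483 and listed at 0 in all others. AAN B639 had the fewest fragments of its group, 13.4 M against 15.5 M to 16.5 M.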

How the results depend on the processing

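No paired analysis was possible because sham and AAN mice carry different tags and share no number. Against 6126 genes called higher and 588 lower on the deposited scale, a pseudocount of 1 gave 2909 higher, a mean of at least 1 FPKM 4025 higher, the median of ratios 3261 and 1801, quantile normalization 2232 and 2157, length bins centred 2872 and 1691, and no fold limit 9482 and 1027. Members called higher (1) became 0 with a pseudocount of 1, a mean of at least 1 FPKM, the median of ratios, quantile normalization and length bins centred, and 2 with a pseudocount of 0.01 or no fold limit. Members called lower (3) became 15 with the median of ratios and with length bins centred, 8 with quantile normalization, 7 with no fold limit and 5 without B607 and B614. They became 2 with a pseudocount of 1, with no filter and with B-tagged mice only. Leaving out 1 mouse gave 1 to 2 members higher (2 without B666) and 2 to 6 lower (6 without B614).

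Members with a positive change on the deposited scale turned negative under rescaling by the median of ratios, quantile normalization and length bins centred, in that order: *Foxi1* -0.49, -0.15 and -0.38; *Atp6v0e2* -0.50, -0.25 and -0.35; *Atp6v1g2* -0.20, -0.81 and -0.19; *Atp6v0d2* -0.43, -0.16 and -0.38; *Atp6v1b1* -0.67, -0.40 and -0.56; *Aqp6* -0.57, -0.23 and -0.46; *Slc4a9* -0.50, -0.0038 and -0.48; *Atp6v0a1* -0.13, -0.26 and -0.14. Under the median of ratios and length bins centred, *Car2* was -0.39 and -0.24, *Atp6v1c1* -0.27 and -0.27, and *Atp6ap2* -0.14 and -0.028. Quantile normalization left these genes positive, *Car2* at 0.37, *Atp6v1c1* at 0.20 and *Atp6ap2* at 0.30. Under quantile normalization *Atp12a* was -0.071, *Slc26a7* -0.40, the ratio of *Atp6v1b1* to *Atp6v1b2* -0.013 and that of *Atp6v0d2* to *Atp6v0d1* -0.045. Leaving out 1 mouse, *Atp6v1b1* ranged from -0.11 to 0.24 and *Aqp6* from -0.039 to 0.28. No ratio passed after adjustment with all mice under the other scalings and pseudocounts; with 4 against 5 mice the smallest p a single ratio can reach after adjustment is 0.0556, so runs with fewer mice say nothing of stability. With 4 and 6 mice and no counts, most differences under 2-fold in members with intervals wider than 1 log2 unit could not be resolved. Of such members *Rhbg*, *Insrr* and *Slc26a7* passed the adjusted p.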

Other observations

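Within the type B intercalated cell genes, the basolateral exchanger *Slc4a9* and the apical exchanger *Slc26a4* stood in a different proportion in most AAN mice. This pair was chosen after its values were seen and is given as a description. The log2 ratio of *Slc4a9* to *Slc26a4* was -0.42 in sham B607, 0.97 in B634, 1.05 in B636 and 0.54 in H249, and 1.35 to 2.88 in 5 AAN mice but 0.03 in B614. As a share of the pair, *Slc4a9* made up 42.7% to 67.4% in sham mice, 71.9% to 88.1% in the 5 AAN mice and 50.5% in B614. B607 and B614, which were high in long against short transcripts, had the lowest ratio of their groups. The gene in the numerator is the longer one, with a longest transcript of 4516 bases for *Slc4a9* and 3075 for *Slc26a4*. The part of length in these ratios was not tested.

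Intercalated cell genes outside the members are given here as values, since the share called higher (3 of 8) was near that of all genes. *P2ry14*, the receptor for UDP-glucose, was at 0.0472 to 0.125 FPKM in sham and 0.462 to 0.784 in AAN and rose by 2.14 on the log2 scale (adjusted p = 6.87e-06, limma). *Dmrt2*, a transcription factor, rose by 1.45 (adjusted p = 0.000587, limma) and *Kit*, a receptor also carried by mast cells and other cells, by 1.04 (adjusted p = 0.000647, limma). *Hmx2* and *Oxgr1*, the latter a receptor of type B cells, had log2 fold changes of -0.59 and -0.78 that did not pass the test (adjusted p = 0.0640 and 0.104, limma), and *Tmem213* had 0.12 (adjusted p = 0.555, limma).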
